A study of Mus musculus with 12 samples.

Results

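*Epn3*, *Map3k1*, *Slit1*, *Sntb1*, *Knop1*, *Cst8*, *Apol6*, *Adra1d*, and *Lmln* are 9 of the 49585 genes counted in the adrenal cortex of 12 mice. They were chosen by a higher RNA level on a high-fat diet (HFD) than on a low-fat diet (LFD), outside the enzymes of lipid metabolism, with no threshold of size. Because these levels chose the genes, the difference between the HFD and LFD groups is only described, and test results on it for the 9 genes are not read as evidence. In the mice that chose them, 8 of the 9 genes had all HFD levels above all LFD levels, as had 7.71% of all genes tested. The HFD and LFD ranges of *Lmln*, listed with them as a strong riser, overlapped.

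The series addressed how a HFD, and icosapent ethyl given on top of it, change RNA levels in the adrenal cortex. Icosapent ethyl is the purified ethyl ester of the omega-3 fatty acid eicosapentaenoic acid. The 4 LFD mice (replicates 2, 5, 6, and 7, on a normal diet according to the labels) and the 4 HFD mice (replicates 1 to 4) were fed for 20 weeks. The 4 icosapent ethyl–treated mice (replicates 1 to 4) also ate the HFD for 20 weeks, and it contained icosapent ethyl for the last 10 weeks. All 12 mice carry the genotype *Fads2*-/- in the labels, whereas the methods of the study describe male wild-type C57BL/6J mice, and *Fads2* was expressed at 451.8 to 2182 CPM in each of them. CPM are counts per 1000000 of the library size, after scaling of the library sizes.

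Each mouse gave 1 library, with 34785979 to 67295963 counts on genes, and all 9 genes passed the filter on low counts in every comparison. Markers of steroidogenic cells were abundant in all libraries, and the 8 of them summed to 43635 to 72549 CPM in LFD, 57613 to 101694 CPM in HFD, and 60415 to 93589 CPM in icosapent ethyl–treated mice. All 8 were higher in HFD than in LFD mice. With edgeR 0 passed an adjusted p of 0.05, 6 were at an unadjusted p below 0.05, and 2 passed with DESeq2 (1.45%, 24.8%, and 13.4% of all genes). All 8 were also higher in icosapent ethyl–treated than in LFD mice, with 0, 3, and 0 passing in the same order (0%, 14%, and 3.18%). The 12 markers of chromaffin cells, which belong to the adrenal medulla, were also present. Their sum was 6417 to 22533 CPM in LFD, 3093 to 9969 CPM in HFD, and 5537 to 10955 CPM in icosapent ethyl–treated mice. All 12 were lower in HFD than in LFD mice, with 0 of 12 past an adjusted p of 0.05 with edgeR, 9 at an unadjusted p below 0.05, and 6 past the adjusted threshold with DESeq2 (background in either direction 1.45%, 24.8%, and 13.4% of all genes). Markers of other cells moved with the groups too. The 8 macrophage markers summed to 425.6 to 618.1 CPM in LFD and 325.9 to 387.4 CPM in HFD mice, and the 4 of capsule and fibroblasts to 229.0 to 380.1 and 136.1 to 214.4 CPM, both without overlap. Of the 8 macrophage markers, 2 had a positive fold change. In the lower direction, 3 passed the threshold with edgeR and 4 with DESeq2, and 5 were at an unadjusted edgeR p below 0.05 (1.45%, 13.4%, and 24.8% of all genes in either direction). The 4 Schwann cell markers, each with a lower mean in HFD mice, summed to 6.42 to 30.3 and 3.80 to 11.1 CPM. The 6 adipocyte markers summed to 132.0 to 239.2 CPM in LFD and 198.1 to 267.4 CPM in HFD mice, and 4 had a positive fold change. Most of the sum was *Plin1*, at 156.2 ± 30.9 and 194.8 ± 32.8 CPM. *Lep*, which encodes leptin, had 1.20 ± 1.38 and 11.3 ± 5.1 CPM (edgeR adjusted p = 0.060, DESeq2 adjusted p = 5.26e-05). The other 2 were lower in HFD mice. *Cfd* had 9.12 ± 5.08 and 2.09 ± 0.56 CPM (edgeR adjusted p = 0.076, DESeq2 adjusted p = 0.00124), and *Retn* had 3.55 ± 2.77 and 1.52 ± 0.68 CPM. The mesothelial marker *Upk3b* had 0.782 ± 0.363 CPM in HFD against 7.17 ± 5.73 CPM in icosapent ethyl–treated mice (edgeR adjusted p = 0.9997, DESeq2 adjusted p = 0.000653). Of the 6 mesothelial markers, 5 had a positive fold change in this comparison, while *Lrrn4* had 13.9 ± 3.8 against 11.2 ± 2.8 CPM. With edgeR 0 passed the threshold, 3 were at an unadjusted p below 0.05, and 2 passed with DESeq2 (0%, 1.39%, and 0.0377% of all genes). Apart from covariates of adipocyte and chromaffin markers, the part of these cells in the levels of the 9 genes was not tested. In such bulk tissue, fewer cells of a type and less RNA per cell cannot be told apart.

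The 9 genes have unlike roles. SLIT1 is a secreted ligand of Roundabout (ROBO) receptors and is best known for guiding axons. ADRA1D is a receptor for noradrenaline and adrenaline, the hormones that chromaffin cells release next to the cortex, and signals through Gq to phospholipase C. MAP3K1 is a kinase at the head of the JNK cascade. EPN3 is an epsin, which links membrane lipids and cargo to clathrin during endocytosis, and SNTB1 is a syntrophin, a scaffold bound to dystrophin or utrophin beneath the membrane. KNOP1 is a lysine-rich protein of the nucleolus, the site of ribosomal RNA synthesis. CST8 is a cystatin-related protein best known from testis and epididymis, APOL6 belongs to the apolipoprotein L family, and LMLN is a zinc metallopeptidase related to leishmanolysin.

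The largest difference between HFD and LFD mice was that of *Cst8*, and the smallest was that of *Knop1*. Of the 9 genes, 8 had an adjusted p below 0.05 in edgeR's quasi-likelihood test, as did 0.974% of the 15909 genes tested in the direction of higher levels. The same 8 genes had no overlap between the groups, as had 7.71% of all genes. Since this contrast chose the genes, nothing is read from these counts. The 8 calls were all lost when HFD replicate 2, 3, or 4 or LFD replicate 5, 6, or 7 was left out, as were those of all other genes, with 8 or 9 of the 9 genes then at an unadjusted p below 0.05. The log2 fold changes ranged from 0.86 to 2.23 with a median of 1.30, and the median over all genes was -0.01.

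**Figure D1:**
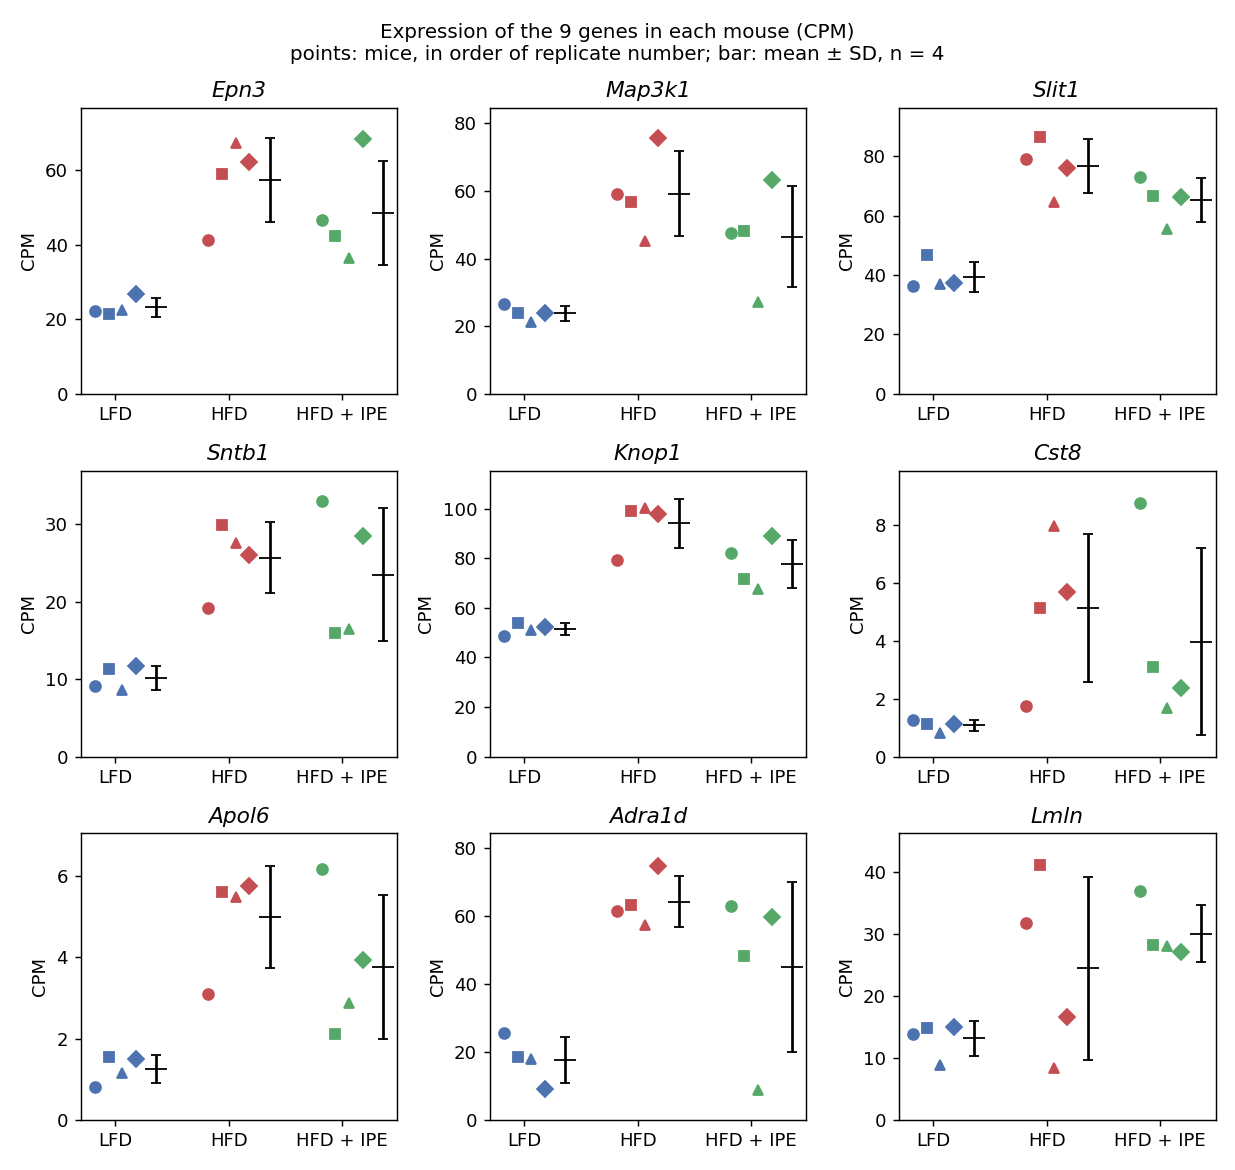
CPM of each gene (vertical axes, from 0) in each mouse (points, in order of replicate number), by group, with the mean ± SD of the 4 mice to the right of the points. LFD points lie below all HFD points for every gene but *Lmln*, and 1 icosapent ethyl–treated mouse, replicate 3, is at the LFD level of *Adra1d* (8.70 CPM).

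*Slit1* (ENSMUSG00000025020, chromosome 19, 41600257 to 41743665, minus strand, 36 exon blocks) was measured at 36.3, 46.7, 36.9, and 37.3 CPM in LFD replicates 2, 5, 6, and 7. In HFD replicates 1 to 4, its levels were 79.0, 86.6, 64.6, and 76.1 CPM. Icosapent ethyl–treated replicates 1 to 4 had 73.0, 66.7, 55.3, and 66.3 CPM. All mice on the HFD, with or without icosapent ethyl, lay above all LFD mice. The coefficients of variation within groups were 11.3% to 12.6%. The log2 fold change was 0.95 ± 0.12 (SE) for HFD over LFD and 0.73 ± 0.12 for icosapent ethyl–treated over LFD mice.

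*Robo1*, which encodes a receptor of SLIT proteins, was the only other gene among the 11 tested Slit and Robo genes to pass the threshold with edgeR in HFD against LFD mice (1.45% of all genes passed in either direction), whereas DESeq2 also called *Gpc1* and *Robo2* (13.4% of all genes). It rose from 97.9 ± 18.9 to 219.6 ± 33.6 CPM (mean ± SD, n = 4 each), with a log2 fold change of 1.16 ± 0.15 (edgeR adjusted p = 0.034). The 4 HFD mice had 174.5, 255.8, 224.3, and 223.9 CPM, all above the highest LFD mouse at 117.3 CPM. Icosapent ethyl–treated mice had 176.5 ± 26.5 CPM, with a log2 fold change over LFD of 0.85 ± 0.16 (edgeR adjusted p = 0.170; DESeq2 adjusted p = 0.000656). The call in HFD mice was lost when HFD replicate 2, 3, or 4 or LFD replicate 5, 6, or 7 was left out and with the chromaffin markers as a covariate, where the adjusted p was 0.333, while the fold change stayed between 0.84 and 1.29 over 16 alternatives.

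*Gpc1*, which encodes a glypican that binds SLIT proteins, had 38.1 ± 5.8 CPM in LFD against 60.1 ± 15.7 CPM in HFD mice (log2 fold change 0.65 ± 0.19, edgeR adjusted p = 0.093, DESeq2 adjusted p = 0.027). *Slit2* was at 19.6 ± 7.1 CPM in LFD against 9.73 ± 5.49 CPM in HFD mice (log2 fold change -1.02 ± 0.41, edgeR adjusted p = 0.171). *Slit3* was at 33.3 ± 7.9 and 36.2 ± 5.9 CPM (log2 fold change 0.12, adjusted p = 0.750). *Robo2*, the other neuronal Slit receptor, had 6.74 ± 1.56 CPM in LFD against 3.57 ± 1.55 CPM in HFD mice (log2 fold change -0.93, adjusted p = 0.147). *Robo4*, a Robo protein of endothelium, had 37.8 ± 7.0 and 39.9 ± 5.2 CPM, and *Robo3* was below 1 CPM on average in every group. None of these genes passed the threshold with edgeR, and DESeq2 called *Gpc1* and *Robo2* (adjusted p = 0.027 and 0.046).

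*Adra1d* (ENSMUSG00000027335, chromosome 2, 131545850 to 131562283, minus strand, 2 exon blocks) had 25.4, 18.5, 17.9, and 8.94 CPM in LFD replicates 2, 5, 6, and 7. Its HFD levels were 61.4, 63.4, 57.3, and 74.8 CPM. Under icosapent ethyl, replicates 1, 2, and 4 had 63.0, 48.3, and 59.8 CPM and replicate 3 had 8.70 CPM. Replicate 3 was thus below the lowest LFD mouse, while the other three lay above the highest. Its log2 fold change was 1.84 ± 0.28 for HFD over LFD, and 1.35 ± 0.54 for icosapent ethyl–treated over LFD mice. Icosapent ethyl replicate 3 also had the highest chromaffin marker sum of its group, 10955 CPM. Replicate 2, at 48.3 CPM of *Adra1d*, had a similar marker sum, 10666.5 CPM. LFD replicate 7, the lowest LFD mouse for *Adra1d*, had the lowest chromaffin marker sum of its group, 6417 CPM. The part of chromaffin cells in the *Adra1d* level was not tested within groups.

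The other adrenergic receptor genes had few counts. *Adra1b*, which encodes another α1 receptor, had 3.96 ± 2.59 CPM in LFD against 2.11 ± 0.68 CPM in HFD mice (log2 fold change -0.92, edgeR adjusted p = 0.227). *Adra2c*, an inhibitory Gi-coupled receptor, had 3.45 ± 1.30 and 1.35 ± 0.53 CPM (log2 fold change -1.36, edgeR adjusted p = 0.077, DESeq2 adjusted p = 0.00348). The β receptor genes *Adrb1* and *Adrb3* had log2 fold changes of -0.40 and -0.38, and *Adra2b* had 0.12, with adjusted p-values of 0.684 or more. *Adra1a* and *Adra2a* were below 1 CPM on average in every group and did not pass the filter in this comparison. Of the 18 tested receptor and Gq signalling genes besides *Adra1d*, 6 had a positive fold change and 0 passed the threshold with edgeR (1.45% of all genes). With DESeq2, 3 passed, among them *Adra2c* (13.4% of all genes), and 5 were at an unadjusted edgeR p below 0.05 (24.8%). A short antisense gene on the opposite strand, *Gm14285*, shares 147 exon bases with *Adra1d* and had 0.247 ± 0.156 CPM in LFD against 0.596 ± 0.203 CPM in HFD mice (log2 fold change 1.23 ± 0.50, adjusted p = 0.171). The authors counted reads by strand.

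*Map3k1* (ENSMUSG00000021754, chromosome 13, 111746428 to 111808993, minus strand, 22 exon blocks) was at 26.6, 23.9, 21.1, and 23.8 CPM in LFD replicates 2, 5, 6, and 7, within a coefficient of variation of 9.39%. The HFD mice had 59.1, 56.6, 45.2, and 75.7 CPM. The icosapent ethyl–treated mice had 47.5, 48.0, 27.1, and 63.3 CPM. Replicate 3 of this group, at 27.1 CPM, was just above the highest LFD mouse. HFD over LFD mice gave a log2 fold change of 1.30 ± 0.15, and icosapent ethyl–treated over LFD mice gave 0.96 ± 0.22.

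Of 24 other genes of the cascade, 18 had a positive fold change in HFD against LFD mice, and the median was 0.11 on the log2 scale. None of the 24 passed the threshold with edgeR or DESeq2 (1.45% and 13.4% of all genes), and 6 were at an unadjusted edgeR p below 0.05 (24.8%). *Map3k2*, its close relative, had 48.3 ± 9.7 CPM in LFD against 58.5 ± 3.6 CPM in HFD mice (log2 fold change 0.27 ± 0.14, edgeR adjusted p = 0.250). *Map2k4*, which encodes a kinase that MAP3K1 phosphorylates, had 62.0 ± 14.5 and 76.9 ± 24.6 CPM, and *Mapk10*, the neuronal JNK gene, had 8.24 ± 3.61 and 3.62 ± 2.34 CPM (log2 fold change -1.20, adjusted p = 0.202).

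*Epn3* (ENSMUSG00000010080, chromosome 11, 94489599 to 94499974, minus strand, 12 exon blocks) was measured at 22.1, 21.3, 22.4, and 26.8 CPM in LFD replicates 2, 5, 6, and 7. HFD replicates 1 to 4 had 41.4, 58.9, 67.3, and 62.1 CPM, and icosapent ethyl–treated replicates had 46.7, 42.4, 36.3, and 68.3 CPM. All 8 of these mice lay above the highest LFD mouse. The log2 fold change was 1.30 ± 0.15 for HFD over LFD and 1.07 ± 0.19 for icosapent ethyl–treated over LFD mice. *Epn1* was at 156.1 ± 12.9 CPM in LFD against 155.5 ± 8.3 CPM in HFD mice (log2 fold change -0.01 ± 0.08), and *Epn2* was at 27.2 ± 6.3 and 26.0 ± 5.7 CPM (-0.07 ± 0.20). Among 19 other epsin, clathrin, and adaptor genes, 12 had a positive fold change, with a median of 0.11. The threshold was passed by 0 with edgeR and 1 with DESeq2 (1.45% and 13.4% of all genes), and 2 were at an unadjusted edgeR p below 0.05 (24.8%).

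*Sntb1* (ENSMUSG00000060429, chromosome 15, 55636388 to 55906949, minus strand, 8 exon blocks) had 9.08, 11.3, 8.62, and 11.7 CPM in LFD replicates 2, 5, 6, and 7. It had 19.2, 29.9, 27.5, and 26.0 CPM in HFD replicates 1 to 4. The icosapent ethyl–treated mice split into replicates 1 and 4 at 33.0 and 28.4 CPM and replicates 2 and 3 at 16.0 and 16.5 CPM, and all 4 were above the LFD mice. The log2 fold changes were 1.33 ± 0.17 for HFD and 1.21 ± 0.25 for icosapent ethyl–treated mice, both over LFD. The relative *Sntb2* had 31.6 ± 4.2 CPM in LFD against 39.2 ± 10.2 CPM in HFD mice, with a log2 fold change of 0.30 ± 0.19 (edgeR adjusted p = 0.347). *Sntg1* and *Sntg2* were below 2 CPM on average in every group. Of 15 tested genes of the syntrophin and dystrophin complex besides *Sntb1*, 6 had a positive fold change. None of the 15 passed the threshold with edgeR or DESeq2 (1.45% and 13.4% of all genes), and 1 was at an unadjusted edgeR p below 0.05 (24.8%).

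**Figure D2:**
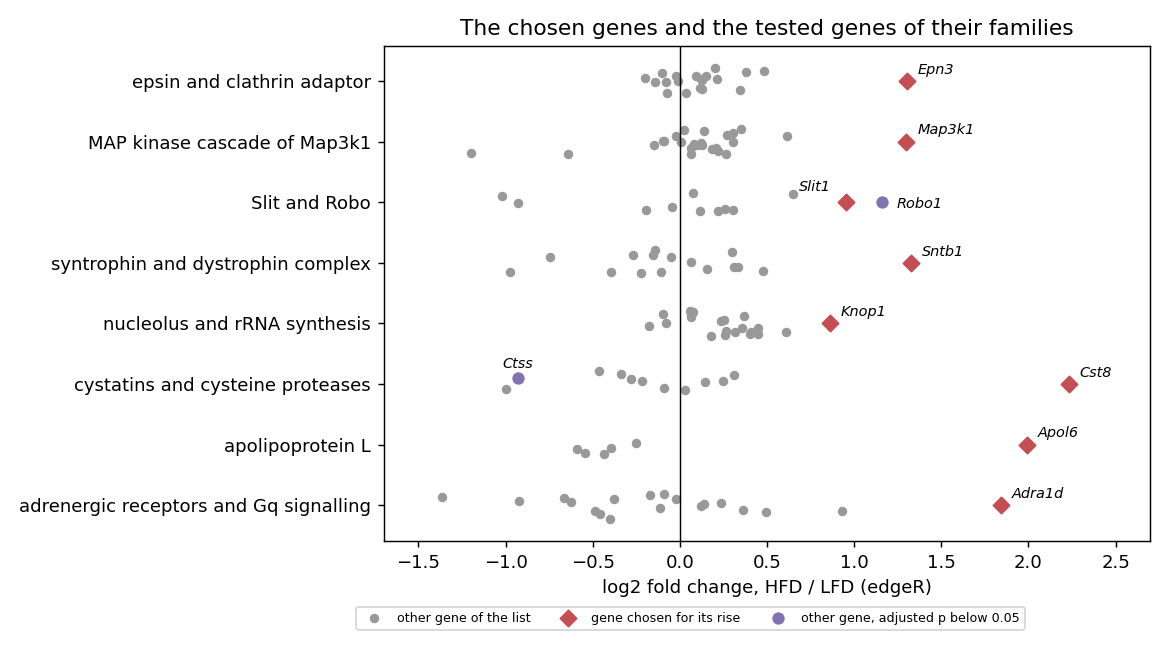
Log2 fold change of HFD over LFD (horizontal axis, edgeR) for the 8 genes that have tested relatives (diamonds) and the other tested genes of their families (grey points, or purple where the adjusted p was below 0.05), one family per row; vertical scatter only separates points. *Robo1* (1.16) and *Ctss* (-0.93) are the 2 other genes past the threshold.

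*Knop1* (ENSMUSG00000030980, chromosome 7, 118842222 to 118856254, minus strand, 8 exon blocks) had 48.7, 54.0, 50.9, and 52.3 CPM in LFD replicates 2, 5, 6, and 7, the lowest coefficient of variation in LFD mice among the 9 genes (4.40%). The HFD mice had 79.3, 99.0, 100.3, and 97.7 CPM, and the icosapent ethyl–treated mice had 81.9, 71.5, 67.7, and 88.8 CPM. All 4 icosapent ethyl–treated mice lay above the LFD mice and below HFD replicates 2 to 4, and replicates 2 and 3 also lay below HFD replicate 1. The log2 fold change over LFD was 0.86 ± 0.09 in HFD and 0.59 ± 0.10 in icosapent ethyl–treated mice. In HFD mice, 17 of 20 other nucleolar and rRNA synthesis genes had a positive fold change, with a median of 0.25 against -0.01 over all genes. None of the 20 passed the threshold with edgeR, 7 were at an unadjusted p below 0.05, and 4 passed with DESeq2, where 24.8% and 13.4% of all genes did. *Ncl*, which encodes nucleolin, had 379.9 ± 63.6 CPM in LFD against 431.4 ± 64.8 CPM in HFD mice (log2 fold change 0.18 ± 0.14).

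The gene that starts beside *Knop1* on the opposite strand also rose. *Iqck* shares 416 exon bases with *Knop1*, and its 4 LFD mice had 15.6, 16.2, 15.6, and 16.2 CPM against 22.1, 28.4, 27.7, and 32.1 CPM in HFD mice. Its log2 fold change was 0.78 ± 0.12 (edgeR adjusted p = 0.038). *Gprc5b*, which encodes an orphan receptor and is the next gene on that side on the strand of *Knop1*, rose from 423.7 ± 56.4 to 644.9 ± 50.6 CPM (log2 fold change 0.60 ± 0.10, edgeR adjusted p = 0.040). On the other side, *Vps35l* overlaps *Knop1* by 745 exon bases and had 73.4 ± 6.3 and 75.1 ± 5.0 CPM (0.03 ± 0.09), and *Ccp110* had 6.46 and 5.94 CPM on average (-0.13 ± 0.21). The calls of *Iqck* and *Gprc5b* held in 7 and 8 of 16 alternatives. Both were lost with the chromaffin covariate and without HFD replicate 2, 3, or 4 or any 1 LFD mouse, and *Iqck* also with library totals, with adjusted p-values up to 0.419 and 0.451. Their fold changes over the 16 alternatives were 0.63 to 0.88 and 0.42 to 0.69.

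**Figure D3:**
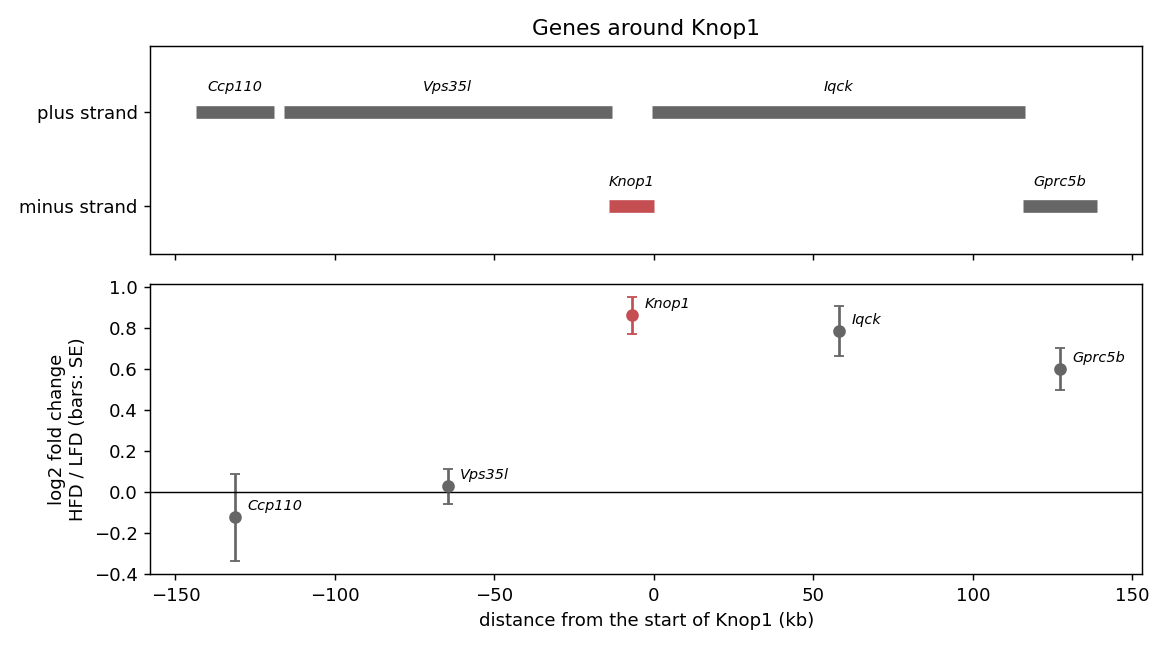
Genes around *Knop1* by strand (upper panel) and their log2 fold change of HFD over LFD with its SE (lower panel, edgeR, 4 mice a group), against distance from the start of *Knop1* in kb. *Knop1* (0.86), *Iqck* (0.78), and *Gprc5b* (0.60) are above 0, while *Vps35l* (0.03) and *Ccp110* (-0.13) lie within about 1 SE of 0.

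Among the nearest coding genes of the other 8 genes, none of those tested passed the threshold with edgeR. *Osbpl11*, which encodes an oxysterol-binding protein, near *Lmln* had a log2 fold change of 0.44 ± 0.11 (edgeR adjusted p = 0.076), *Mier3* and *Ankrd55* on either side of *Map3k1* had -0.18 and -1.08, and *Smox* near *Adra1d* had 0.28. *Gm340* and *Arhgap19* beside *Slit1* had 0.56 and -0.30, and *Rbfox2* beside *Apol6* had 0.23. *Sntb1* and *Apol6* lie 21.1 Mb apart on chromosome 15, and *Adra1d* and *Cst8* lie 17.2 Mb apart on chromosome 2.

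*Cst8* (ENSMUSG00000027442, chromosome 2, 148798785 to 148805595, plus strand, 5 exon blocks) had few reads, 36 to 329 counts per mouse. Its levels were 1.28, 1.11, 0.802, and 1.12 CPM in LFD replicates 2, 5, 6, and 7. The HFD mice had 1.75, 5.13, 7.93, and 5.68 CPM, and the icosapent ethyl–treated mice had 8.73, 3.08, 1.68, and 2.37 CPM. All 8 HFD-fed mice were above the LFD mice, and HFD replicate 1 and icosapent ethyl replicate 3 were the closest to them. The coefficient of variation was 49.9% in HFD and 81.4% in icosapent ethyl–treated mice, the widest of the 9 genes in the latter group. The log2 fold change over LFD was 2.23 ± 0.42 in HFD and 1.87 ± 0.50 in icosapent ethyl–treated mice. Its neighbours in the cystatin cluster, *Cst12* and *Cst13*, had at most 1 count in any mouse.

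The broadly expressed cystatin *Cst3* was at 732.1 ± 74.2 CPM in LFD against 608.0 ± 45.2 CPM in HFD mice (log2 fold change -0.28, edgeR adjusted p = 0.147), and *Cst6* was at 1.96 ± 0.39 and 0.991 ± 0.376 CPM (-0.998, edgeR adjusted p = 0.109, DESeq2 adjusted p = 0.024). Among 11 tested cystatin and cysteine protease genes, 4 had a positive fold change. *Ctss*, a cathepsin of macrophages and other antigen-presenting cells, was the one to pass the threshold with edgeR and fell from 275.5 ± 46.4 to 145.3 ± 11.5 CPM (log2 fold change -0.93 ± 0.12, edgeR adjusted p = 0.034). DESeq2 called it, *Cst6*, and the cathepsin gene *Ctsl*, which had 263.1 ± 29.7 and 191.9 ± 23.0 CPM (log2 fold change -0.47 ± 0.12, edgeR adjusted p = 0.076, DESeq2 adjusted p = 0.015). Over all genes in either direction, 1.45% passed with edgeR and 13.4% with DESeq2. The part of the lower macrophage marker sum in the *Ctss* difference was not tested. The *Ctss* call was lost under the same 7 alternatives as that of *Robo1*, while its fold change stayed between -1.03 and -0.85 over 16 alternatives.

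RefSeq promoter windows (GRCm38.p6, 250 bases before to 50 after the start) were given for 4 of the 9 genes, *Cst8*, *Map3k1*, *Knop1*, and *Lmln*. They are shown because the 4 genes differ in base composition and in the letters near the start. Capitals mark motifs found by a search on both strands.

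*Cst8*, chr2:148798589-148798888, plus strand: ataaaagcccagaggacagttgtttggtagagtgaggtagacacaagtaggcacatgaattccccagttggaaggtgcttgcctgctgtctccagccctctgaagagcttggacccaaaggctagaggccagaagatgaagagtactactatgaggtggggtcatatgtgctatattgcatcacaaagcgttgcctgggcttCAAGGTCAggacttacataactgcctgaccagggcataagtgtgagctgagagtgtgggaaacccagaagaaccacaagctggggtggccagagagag
*Map3k1*, chr13:111808944-111809243, minus strand: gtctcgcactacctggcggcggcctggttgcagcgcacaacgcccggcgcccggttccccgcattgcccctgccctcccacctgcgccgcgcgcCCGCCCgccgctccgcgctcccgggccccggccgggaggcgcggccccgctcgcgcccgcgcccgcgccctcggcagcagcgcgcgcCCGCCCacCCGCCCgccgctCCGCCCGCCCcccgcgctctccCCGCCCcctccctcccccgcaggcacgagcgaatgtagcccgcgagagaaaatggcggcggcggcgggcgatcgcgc
*Knop1*, chr7:118855949-118856248, minus strand: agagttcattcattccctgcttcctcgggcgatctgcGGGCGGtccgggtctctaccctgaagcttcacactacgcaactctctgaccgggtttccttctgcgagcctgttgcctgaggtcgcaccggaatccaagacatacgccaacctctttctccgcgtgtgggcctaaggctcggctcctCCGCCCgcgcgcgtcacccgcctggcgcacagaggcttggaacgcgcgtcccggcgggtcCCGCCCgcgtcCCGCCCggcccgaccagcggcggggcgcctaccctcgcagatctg
*Lmln*, chr16:33062271-33062570, plus strand: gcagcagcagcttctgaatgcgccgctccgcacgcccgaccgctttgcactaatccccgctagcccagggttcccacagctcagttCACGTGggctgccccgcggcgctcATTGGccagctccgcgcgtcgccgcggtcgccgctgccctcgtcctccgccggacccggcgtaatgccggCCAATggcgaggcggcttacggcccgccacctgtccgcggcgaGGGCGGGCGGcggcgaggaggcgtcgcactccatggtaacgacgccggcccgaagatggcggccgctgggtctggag

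The *Cst8* window was the only one of these 4 with the letters CAAGGTCA, the site of NR5A1 (SF-1), the transcription factor that defines the adrenal cortex and gonads. The match starts 48 bases before the RefSeq start, which lies 54 bases from the start in the gene annotation, and 1.56% of all 32851 promoter windows hold these letters. The window was 51.0% G and C with 1 CpG, and the median of all windows was 52.7%. Those of *Map3k1*, *Lmln*, and *Knop1* were 82.7%, 73.0%, and 67.7% G and C with 55, 44, and 36 CpG. *Map3k1* held 6 matches of the GC box GGGCGG, *Knop1* 4, and *Lmln* 2, and this motif is in 35.7% of windows. *Lmln* also held 1 E-box, CACGTG (7.15% of windows), and 2 CCAAT boxes, CCAAT (37.4%). In *Map3k1* and *Lmln*, 1 pair of GC boxes overlaps. None of the windows of these genes held TGACGTCA (cAMP response element, 1.79% of windows), TCACNCCAC (SREBP site, 1.24%), or TATAAA (the letters of a TATA box, 13.6%). A match is a match of letters, and no binding was measured. A second RefSeq start of *Knop1* had 1 GC box and is not shown.

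*Apol6* (ENSMUSG00000033576, chromosome 15, 77044729 to 77057106, plus strand, 8 exon blocks) also had few reads, 43 to 290 counts per mouse. It was at 0.809, 1.54, 1.16, and 1.497 CPM in LFD replicates 2, 5, 6, and 7. HFD replicates 1 to 4 had 3.11, 5.61, 5.50, and 5.77 CPM, and icosapent ethyl–treated replicates had 6.18, 2.11, 2.87, and 3.93 CPM. The groups on the HFD did not overlap the LFD mice. The log2 fold change over LFD was 1.99 ± 0.28 in HFD and 1.59 ± 0.36 in icosapent ethyl–treated mice. Of the other apolipoprotein L genes, 5 were tested (*Apol8*, *Apol9a*, *Apol9b*, *Apol10b*, and *Apol11b*). Their log2 fold changes were -0.59 to -0.25, with edgeR adjusted p-values of 0.202 or more, 0 at an unadjusted p below 0.05 (24.8% of all genes), and 0 called by DESeq2 (13.4%). *Apol9b* had 7.69 ± 0.50 CPM in LFD against 5.73 ± 1.43 CPM in HFD mice. *Apol9a* and *Apol9b* are near-identical copies, so reads may be split between them uncertainly.

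*Lmln* (ENSMUSG00000022802, chromosome 16, 33062521 to 33127695, plus strand, 17 exon blocks) was the exception. It was measured at 13.9, 14.7, 8.82, and 15.0 CPM in LFD replicates 2, 5, 6, and 7. HFD replicates 1 and 2 had 31.7 and 41.1 CPM, whereas replicates 3 and 4 had 8.35 and 16.6 CPM. Replicate 3 was the lowest of all 12 mice, so that the HFD and LFD ranges overlapped, and the log2 fold change of 0.89 ± 0.43 had a 95% interval from -0.08 to 1.87. The 4 icosapent ethyl–treated mice, at 36.9, 28.1, 27.9, and 27.0 CPM, all lay above all LFD mice, with a log2 fold change of 1.20 ± 0.19. The coefficient of variation was 60.3% in HFD, 15.4% in icosapent ethyl–treated, and 22.1% in LFD mice. Left out in turn, single mice moved the HFD over LFD value between 0.52 and 1.19.

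**Figure D4:**
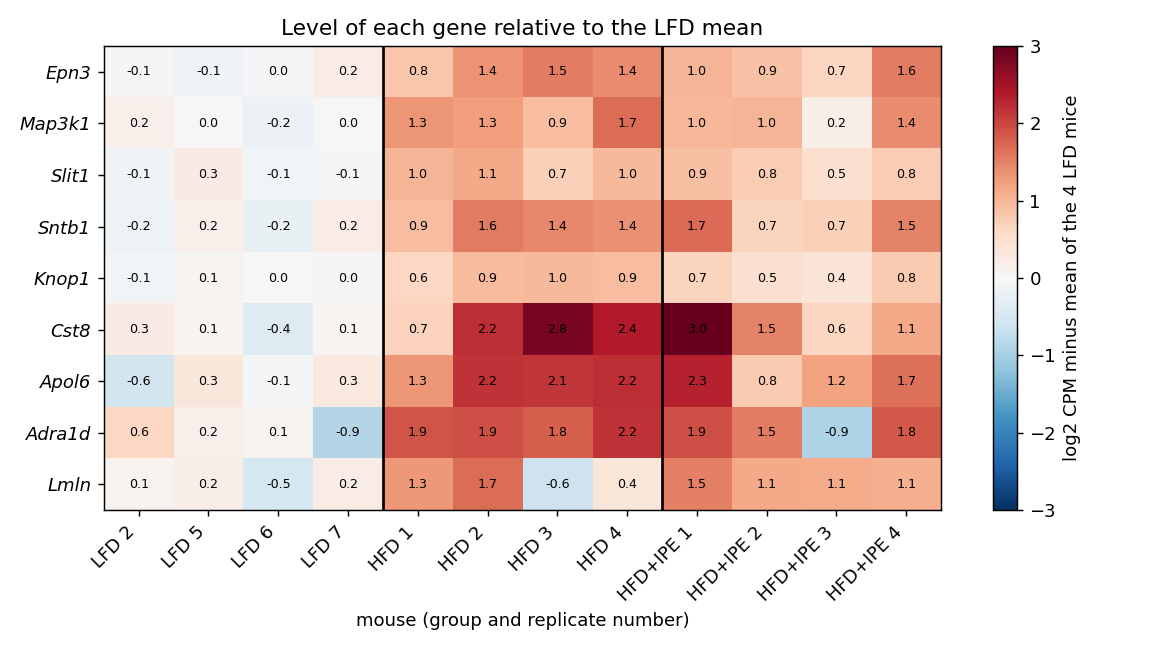
Log2 CPM of each gene minus the mean of the 4 LFD mice (colour and printed value), by mouse; black lines separate LFD, HFD, and HFD + IPE (icosapent ethyl) mice. HFD 1, HFD+IPE 2, and HFD+IPE 3 have the palest columns of the mice on the HFD, with medians of 1.02, 0.88, and 0.64, and HFD 3 is below the LFD mean for *Lmln* alone.

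Compared per length of exons, *Adra1d* was the highest of the 9 genes in every group, with 9.31 ± 3.56 CPM per kb in LFD, 33.8 ± 3.9 in HFD, and 23.7 ± 13.2 in icosapent ethyl–treated mice. *Knop1* was next in each group, at 8.75, 16.0, and 13.2 CPM per kb, and its range did not overlap that of *Adra1d* in HFD mice but did in the others. *Slit1* (6.64 CPM per kb in LFD) and *Epn3* (5.70) followed, in the reverse order in the other groups, with overlapping ranges in all 3. Below them in LFD mice came *Map3k1* (3.20), *Lmln* (2.01), *Sntb1* (1.91), and *Cst8* (1.26), of which *Lmln* and *Sntb1* overlapped. *Cst8* stood eighth in LFD mice and sixth in the other groups, at 6.004 CPM per kb in HFD mice. *Apol6* was the lowest throughout, at 0.278, 1.11, and 0.838 CPM per kb. In HFD mice, the ranges of *Map3k1*, *Cst8*, *Sntb1*, and *Lmln* overlapped each with the next.

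The icosapent ethyl–treated mice were not used to choose the genes, but the LFD mice with which they were compared were. All 9 genes had higher levels in icosapent ethyl–treated than in LFD mice, with log2 fold changes from 0.59 to 1.87 and a median of 1.20, against -0.004 over all genes. None of the 9 passed the edgeR threshold (adjusted p from 0.153 to 0.335), where 0% of the 15935 genes tested did and the lowest adjusted p of any gene was 0.153. At an unadjusted p below 0.05, 9 of the 9 genes passed, as did 7.29% of all genes in this direction. All but *Adra1d*, 8 of the 9, had no overlap between the groups, as had 4.04% of all genes. DESeq2 called the same 8 genes (adjusted p from 6.21e-06 for *Lmln* to 0.00860 for *Cst8*, and 0.118 for *Adra1d*), and 1.69% of all genes in this direction. The smallest edgeR adjusted p, 0.153, was shared by *Epn3*, *Slit1*, *Knop1*, and *Lmln*. Since the LFD levels took part in the choice of the genes, nothing is read from these counts either.

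**Figure D5:**
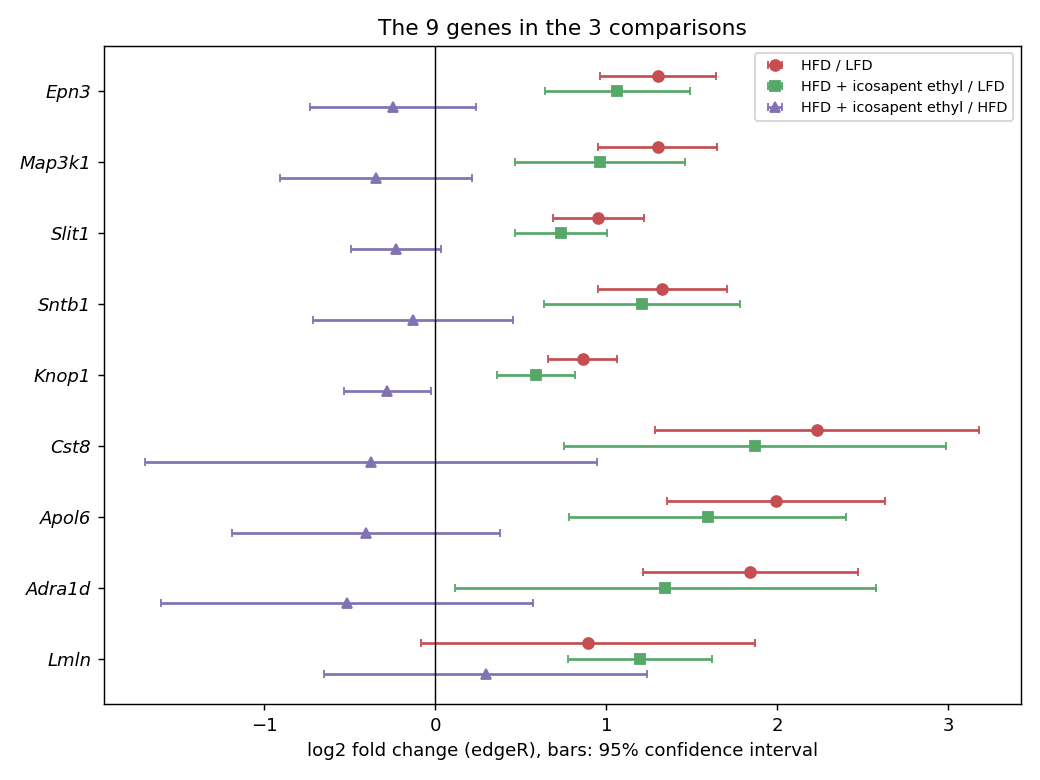
Log2 fold change (horizontal axis, edgeR) of each gene with its 95% confidence interval for HFD over LFD, icosapent ethyl–treated over LFD, and icosapent ethyl–treated over HFD mice (4 mice a group). The first comparison chose the genes. The intervals over LFD lie above 0 except for *Lmln* in HFD mice, and those of the third comparison span 0 except for *Knop1* (-0.54 to -0.02).

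Against HFD mice, whose levels also chose the genes, icosapent ethyl–treated mice had lower means for 8 of the 9 genes, and a higher mean for *Lmln*. The log2 fold changes ranged from -0.51 for *Adra1d* to 0.29 for *Lmln*, with a median of -0.28 against 0.004 over all genes. None of the 9 passed the threshold with edgeR (adjusted p = 0.9997 for each, the lowest among all 15913 genes, of which 0% passed) or with DESeq2 (0.0377% of all genes passed). *Knop1* had the one unadjusted p below 0.05, 0.036, with a log2 fold change of -0.28 ± 0.11 and a 95% interval from -0.54 to -0.02, and 1.39% of all genes had such a p in either direction. The groups overlapped for all 9 genes, where 0.484% of all genes did not overlap in the higher and 0.66% in the lower direction. With the replicate number as a block, *Map3k1* (log2 fold change -0.38 ± 0.10, unadjusted p = 0.00785), *Slit1* (-0.23 ± 0.07, 0.0161), and *Knop1* (-0.28 ± 0.11, 0.0442) were at an unadjusted edgeR p below 0.05, as were 4.37% of all genes, and the adjusted p was 0.889 for each. *Map3k1* and *Slit1* were lower in icosapent ethyl–treated than in same-numbered HFD mice for all 4 numbers, which are not known to mark pairs. Genes chosen for high HFD levels tend to be lower in any other group, so nothing is read from the direction. The intervals of *Slit1* (-0.49 to 0.03) and *Epn3* (-0.73 to 0.24) were narrower than those of *Cst8* (-1.69 to 0.95) and *Adra1d* (-1.60 to 0.57).

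The mice did not contribute evenly. HFD replicate 1 was the lowest HFD mouse for *Epn3*, *Sntb1*, *Knop1*, *Cst8*, and *Apol6*, and HFD replicate 3 for *Map3k1*, *Slit1*, *Adra1d*, and *Lmln*. HFD replicate 1 had the lowest steroidogenic marker sum (57613 CPM) and the highest chromaffin marker sum (9969 CPM) of its group. HFD replicate 3, in contrast, had the highest steroidogenic marker sum (101694 CPM), with a chromaffin marker sum of 8565 CPM. The part of cell content in these positions was not tested. Among icosapent ethyl–treated mice, replicate 3 was below all HFD mice for 8 of the 9 genes and replicate 2 for 4, but replicates 1 and 4 for none. Replicate 1 was the highest of its group for 6 genes. LFD replicate 7 had a chromaffin sum (6417 CPM) within the range of the HFD mice. Like every LFD mouse, it lay below all HFD mice for 8 of the 9 genes. This contrast chose the genes, so nothing is read from that position. With the mean of the chromaffin markers as a covariate, the log2 fold changes of HFD over LFD were 0.57 to 2.24. None of the 9 genes was then called, nor was any other gene, and 8 of the 9 were at an unadjusted p below 0.05.

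Within groups, the genes did not all vary together. The deviations of log2 CPM from the group means over the 12 mice correlated at 0.90 for *Sntb1* and *Apol6*, 0.89 for *Epn3* and *Knop1*, 0.87 for *Sntb1* and *Knop1*, and 0.79 for *Map3k1* and *Adra1d*. The median of the 36 pairs was 0.43. The 8 pairs with *Lmln* had a median of 0.01, from -0.34 with *Epn3* to 0.66 with *Slit1*. These correlations are descriptions, because the values of one mouse share a library, its depth, and its cell composition.

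Other genes followed the 9 closely across the 12 mice. Among 13472 genes with a mean of at least 1 CPM, *Apol6* was most like *Entpd5*, which encodes a nucleotide phosphatase of the endoplasmic reticulum (Pearson r = 0.99 in log2 CPM, 0.98 for deviations from group means). The likest genes were picked by their r in these same mice. The r of deviations is therefore no independent check, and nothing is read from its size. *Entpd5* had 75.0 ± 14.4 CPM in LFD, 174.3 ± 36.5 in HFD, and 141.2 ± 42.0 in icosapent ethyl–treated mice, and its lowest HFD mouse was replicate 1 (120.3 CPM), as for *Apol6*. The next gene for *Apol6* was *Hspa12a* (r = 0.98). *Knop1* was most like *Lipe*, the hormone-sensitive lipase that also hydrolyses cholesteryl esters (r = 0.98, 55.4, 102.9, and 86.1 CPM in the 3 groups), followed by *Bspry*, and *Epn3* was most like *Knop1* itself and *Aars*, an alanyl-tRNA synthetase gene (r = 0.97 each). *Slit1* was most like *Ccdc25* and *Fads6* (0.98 and 0.96), *Map3k1* like *Kansl2* and *Sepsecs* (0.98 and 0.97), and *Sntb1* like *Camsap1* and *Cpsf2* (0.98 and 0.97).

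*Adra1d* was most like *S1pr2*, a receptor for sphingosine 1-phosphate (r = 0.97, with 33.3, 64.9, and 49.4 CPM in the 3 groups), and *Gpatch1* (0.96). *S1pr2* too was lowest in icosapent ethyl replicate 3, at 24.9 CPM, below the lowest LFD mouse at 28.0 CPM. *Cst8* was most like *Timp4*, an inhibitor of metalloproteinases that was at 0.626, 1.93, and 1.43 CPM (r = 0.96). *Lmln* was most like *Pskh1* and *Rbm41* (0.93 and 0.92), whose group means differed less than its own, at 31.6, 36.2, and 38.8 CPM for *Pskh1*. All of these likenesses include the difference between diets that chose the genes.

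In all, 142 other genes of these families and pathways were listed, and 123 were tested in HFD against LFD mice. *Robo1* and *Ctss* were the 2 that passed, 1 in each direction, and 14 passed with DESeq2, against a background of 1.45% and 13.4% of all genes in either direction. Their median log2 fold change was 0.06. In icosapent ethyl–treated mice, 0 of 124 tested passed against LFD or against HFD mice with edgeR, with 13 and 0 at an unadjusted p below 0.05 (14% and 1.39% of all genes), and 2 and 0 passed with DESeq2 (3.18% and 0.0377%). *Lmln2*, the relative of *Lmln* in the list, was not matched to a counted gene.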

How the data were processed

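RNA of the adrenal cortex of 12 mice was sequenced, 1 library per mouse. The authors trimmed the reads with cutadapt, aligned them to GRCm38 (mm10) with STAR, counted them by strand with HTSeq 0.6.1p1, and deposited raw counts per gene without normalization. Groups were taken from the labels. The 9 genes and the gene lists were chosen with earlier results of these data known.

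Groups were compared by the quasi-likelihood test of edgeR 4.0.16 (R 4.3.3) with TMM scaling and a robust fit, after filterByExpr at a minimum count of 10, in the 8 mice compared and without covariates. P-values were adjusted over all genes tested (Benjamini-Hochberg, threshold 0.05). CPM were scaled over all 12 mice, and correlations used log2 CPM with a prior count of 2. Symbols and positions of 49326 genes came from GENCODE M21 (GRCm38). The procedure was tested on simulated data. The named genes were the 9 genes, their paralogs, list genes past the threshold, the nearest coding gene on either side, and the 2 genes of highest Pearson r. Overlapping genes, *Ncl*, *Gpc1*, *Ctsl*, *Lep*, *Cfd*, *Retn*, *Plin1*, *Upk3b*, *Lrrn4*, *Mapk10*, *Map2k4*, and the other Robo genes were named after their values were seen. Values of some genes that this rule names are not reported here. No 2 libraries were copies (lowest chi-square per degree of freedom 25.9 over 66 pairs).

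The alternatives were DESeq2 1.42.0, its size factors, library totals, no filter, a filter of 10 counts per mouse, 1 fit of all 12 mice, a covariate of adipocyte or chromaffin markers, and the omission of single mice. For HFD and icosapent ethyl–treated mice, both numbered 1 to 4, the replicate number was also a block. Deviations of same-numbered mice correlated at 0.24, 0.12, 0.34, and 0.63. HFD replicates 1, 2, and 3 correlated more with icosapent ethyl replicates 2, 1, and 4 (0.60, 0.44, and 0.37). The correlations thus do not show the numbers to be pairs, and the labels do not say what they stand for. The block is given only as an alternative. The labels do not say whether cages or litters differed, so p-values measure the spread between these mice.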

Additional observations from a re-analysis of the deposited data

Results flagged for a closer look

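In 27 sets of 4 mice (9 genes in 3 groups), the highest or lowest mouse was compared with the others by its gap to the nearest, relative to the range. In 4 sets, 1 mouse stood apart, where chance flags about 1 in 20 sets. *Slit1* was higher in LFD replicate 5 (46.7 CPM) than in the next LFD mouse (37.3 CPM). *Knop1* was lower in HFD replicate 1 (79.3 CPM) than in the next (97.7 CPM), and so was *Apol6* in the same mouse (3.11 against 5.50 CPM). *Lmln* was higher in icosapent ethyl–treated replicate 1 (36.9 CPM) than in the next (28.1 CPM).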

How the results depend on the processing

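The log2 fold changes of the 9 genes in HFD over LFD mice kept their direction in all 16 alternatives. The number past the threshold (8) was 5 with library totals, where 84 of all genes passed, and 0 with the chromaffin covariate, where 0 of all genes passed. It ranged from 0 to 8 when 1 mouse was left out, while all genes past the threshold ranged from 0 to 918 (230 in the full data). Of the other listed genes, 2 passed, against 14 with DESeq2, 5 with all 12 mice in 1 fit, 25 with the adipocyte covariate, 0 with the chromaffin covariate, and 0 to 5 when 1 mouse was left out. Against LFD mice, icosapent ethyl–treated mice had 0 of the 9 genes past the threshold, but 8 with DESeq2, and 0 other listed genes, but 2 with DESeq2. Against HFD mice, *Sntb1* (-0.13) changed sign with the chromaffin covariate (0.056) and when icosapent ethyl replicate 2 or 3 was left out (range -0.337 to 0.0155). The cause was not tested. With the replicate number as a block, 0 of the 9 genes and 0 other listed genes passed (adjusted p from 0.889). The block changed no call, while 3 of the 9 genes were at an unadjusted p below 0.05 with it. DESeq2 called 2049 genes in HFD against LFD mice and 477 in icosapent ethyl–treated against LFD mice, where edgeR called 230 and 0. The values of *Cst8* and *Apol6* rest on few counts, 36 to 329 per mouse, and on 4 mice per group. The part of depth in their spread was not tested.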
